A study of Mus musculus with 12 samples.

Results

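Teneurins (Tenm1 to Tenm4), latrophilins (Adgrl1 to Adgrl3) and the FLRT proteins (Flrt1 to Flrt3) are cell surface proteins that bind each other across cell contacts. The 10 genes that encode them in the mouse were taken from the gene list of the deposited tables by symbol, with 1 entry each among the 55335 genes listed, and their levels were compared across the cell classes of the newborn forebrain and between genotypes. Nuclei were taken from mouse forebrains 1 day after birth (P1). Single-nucleus RNA sequencing reads the RNA of each nucleus, where unspliced molecules are common, though their share was not measured here. The genotypes were wild type (WT, 8 animals, 5 male and 3 female) and heterozygous (Het, 4 animals, 3 male and 1 female) for Myt1l S710fsX, a germline frameshift allele of the neuronal transcription factor gene Myt1l on the C57BL/6J background, so every cell of a Het animal carried it. Each library was made from 1 animal and all libraries were barcoded on 1 plate, and the litter of an animal is not given in the labels. Libraries are named by genotype, sex and the number in their label, and with 1 Het female the effect of sex cannot be told apart from that animal's own.

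Teneurins are large transmembrane proteins that pair with themselves and with latrophilins on the opposite cell, and they guide axons and help choose synaptic partners. Latrophilins are adhesion G protein-coupled receptors that bind teneurins and FLRTs, at times both together, and take part in synapse formation. FLRT proteins carry leucine-rich repeats and a fibronectin domain, attract cells through latrophilins or other FLRTs, and repel them through the netrin receptors of the Unc5 family, as with Flrt2 and Unc5d in migrating cortical neurons.

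A library held between 15439429 and 40784144 unique molecular identifiers (UMIs, which count captured molecules). Between 4460 and 10868 nuclei per library were kept, 94305 in all, with a median of 1898 UMIs per nucleus and 0 barcodes shared between libraries. Nuclei were grouped without the 10 genes into 57 clusters, and 34 of these, with 69.0% of nuclei, were named from fixed marker genes as 18 classes, of which 17 had enough nuclei for a comparison. Names end in "-like" because they rest on markers. ExN is an excitatory and InhN an inhibitory neuron, MGE is the medial and CGE the caudal ganglionic eminence, where inhibitory neurons are born, and D1 and D2 are striatal neurons by dopamine receptor. Striatal as well as cortical neurons were present, and D1-like nuclei made up between 5.18% and 10.3% of Het libraries and between 0.335% and 6.80% of WT libraries, where WT male 4 held the lowest share and only 17 such nuclei. Levels are given in CPM, the count of a gene scaled to the same total of UMIs in every library. Myt1l RNA itself was 1640 ± 115 CPM in the 8 WT and 1953 ± 116 CPM in the 4 Het libraries (SD) over excitatory nuclei, and a frameshift need not lower it, so it did not check the genotype.

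The genes are placed on GRCm38 (mm10) by GENCODE M21. Tenm1 (ENSMUSG00000016150.15) lies on chromosome X from 42527866 to 43429126 (minus strand), Tenm2 (ENSMUSG00000049336.16) on chromosome 11 from 36006656 to 37235964 (minus), Tenm3 (ENSMUSG00000031561.16) on chromosome 8 from 48227682 to 48843951 (minus) and Tenm4 (ENSMUSG00000048078.16) on chromosome 7 from 96171246 to 96911093 (plus). Adgrl1 (ENSMUSG00000013033.16) lies on chromosome 8 from 83900105 to 83941954 (plus), Adgrl2 (ENSMUSG00000028184.12) on chromosome 3 from 148815583 to 148990555 (minus) and Adgrl3 (ENSMUSG00000037605.16) on chromosome 5 from 81020138 to 81825133 (plus). Flrt1 (ENSMUSG00000047787.8) lies on chromosome 19 from 7092001 to 7105729 (minus) inside Macrod1, Flrt2 (ENSMUSG00000047414.6) on chromosome 12 from 95692226 to 95785215 (plus), and Flrt3 (ENSMUSG00000051379.12) on chromosome 2 from 140650914 to 140671469 (minus) inside Macrod2. Macrod1 and Macrod2 run on the opposite strand, and no source used here says whether strand was used in counting, so part of the low Flrt1 and Flrt3 counts could be reads of these host genes. Gm48014 and Gm48015 lie inside Flrt2 on its own strand, and their reads cannot be told apart from those of Flrt2 RNA.

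The deposited counts divided a UMI that fitted several genes, so sequence shared between relatives could bear on the levels. Shared reads were not counted, and introns were not compared. The longest identical stretches between annotated transcripts that were coding in both genes are shown as places where reads could fit 2 members. In lower case, 5′ to 3′, from GENCODE M21 transcripts, they read
Tenm2 and Tenm4: gtcatctactacgacatcaaccagatcat
Tenm2 and Tenm3: catcgagggcaaggacacacactactt
Adgrl1 and Adgrl2: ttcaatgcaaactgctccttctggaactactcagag
Flrt1 and Flrt2: cacctggacgacaactcc
These runs are 29, 27, 36 and 18 bases long. The longest run between any other pair of 1 family was 25 bases (Adgrl2 and Adgrl3), while the genes themselves are 13.7 to 1229 kb long.

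Promoters are shown for Tenm3 and Flrt2, the pair of members with the widest difference between Het and WT excitatory nuclei. Both windows hold 250 bases before and 50 after the RefSeq start on GRCm38.p6, 5′ to 3′ on the strand of the gene. Capitals mark AAGTT, the core that zinc fingers of the MYT1 family bind, searched on both strands.
Tenm3, chr8:48674641-48674940, minus strand: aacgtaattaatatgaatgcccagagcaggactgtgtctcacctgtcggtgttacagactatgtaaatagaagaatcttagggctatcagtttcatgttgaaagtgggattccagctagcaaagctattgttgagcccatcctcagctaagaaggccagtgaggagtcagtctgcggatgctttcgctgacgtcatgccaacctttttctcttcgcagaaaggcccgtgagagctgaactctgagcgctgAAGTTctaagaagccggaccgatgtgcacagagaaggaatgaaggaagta
Flrt2, chr12:95691976-95692275, plus strand: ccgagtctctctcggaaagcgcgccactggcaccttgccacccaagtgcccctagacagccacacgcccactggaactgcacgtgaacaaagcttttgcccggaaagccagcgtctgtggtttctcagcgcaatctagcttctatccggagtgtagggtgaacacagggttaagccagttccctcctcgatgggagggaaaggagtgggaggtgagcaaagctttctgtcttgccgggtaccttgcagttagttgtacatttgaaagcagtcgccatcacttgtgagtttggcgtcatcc
The Tenm3 window lies inside the gene as GENCODE M21 places it, where its 5′ end is at 48843951. The Flrt2 window spans the 5′ end of its gene, so the windows are not alike in position. The Tenm3 window holds AAGTT 1 time, at that RefSeq start, and the Flrt2 window holds it on neither strand. Of the 12 promoters listed for 9 of the members (Flrt1 had none), 4 held the motif, those of Flrt3, Tenm1 and Tenm3 and the second of Tenm4, against 39.3% of all 32851 promoters. The windows of Tenm1 and the second of Tenm4 also lie inside their genes. A match is a description of these letters and not a site.

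Tenm1 and Tenm2 were highest in neurons, Tenm4 in intermediate progenitor-like nuclei and Tenm3 in neurons and astroglia alike, and all 4 were lowest in microglia-like nuclei. Levels are given as the mean of CPM over the libraries with at least 10 nuclei of a class, all 12 for the classes named in the text on levels. Tenm2, the partner first found for latrophilin 1, was highest in D1-like nuclei at 9972 ± 1280 CPM (SD, n = 12) and stood at 7658 ± 1147 CPM in D2-like and 6593 ± 1847 CPM in deep-layer ExN-like nuclei. Tenm2 then ranged down to 240 CPM in microglia-like nuclei, the class in which Tenm1, Tenm3 and Tenm4 were also lowest, at 35.1, 45.1 and 28.3 CPM. Free RNA was not subtracted, so these lowest values include whatever free RNA the preparation held.

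**Figure D1:**
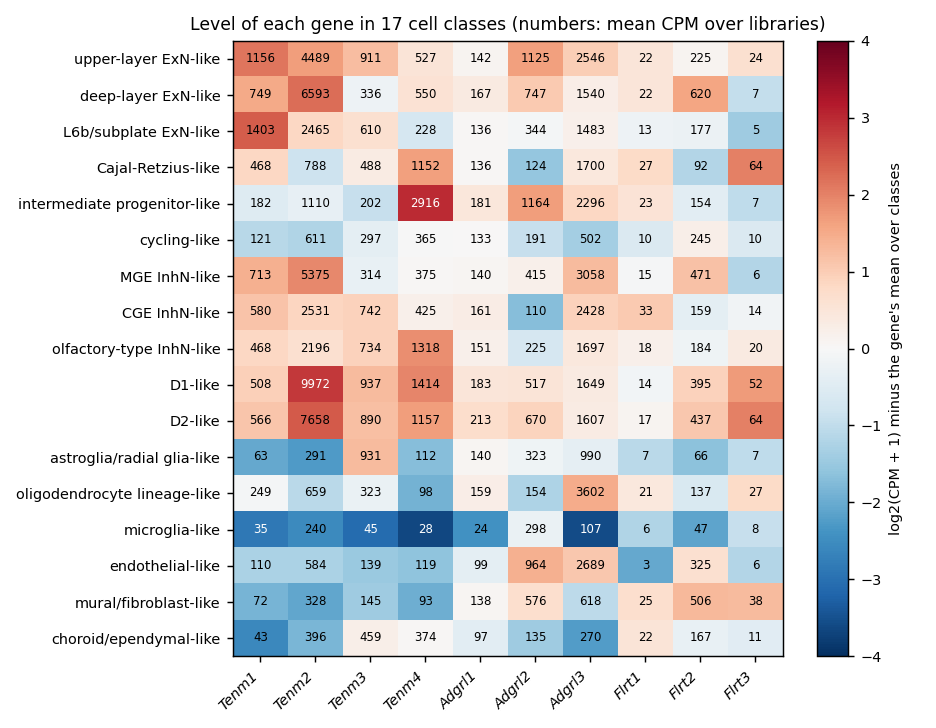
Level of each gene (columns) in the 17 compared classes (rows). The number in each cell is the mean CPM over libraries and the colour is log2(CPM + 1) minus the mean of that gene over classes, so red marks a class above the gene's own mean. Tenm4 is reddest in intermediate progenitor-like nuclei (2916 CPM), Tenm2 in D1-like nuclei (9972 CPM) and Flrt3 in Cajal-Retzius-like and D2-like nuclei.

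The other teneurins had other orders. Tenm1 was led by the excitatory classes, with 1403 ± 193 CPM in L6b/subplate ExN-like, 1156 ± 171 CPM in upper-layer ExN-like and 749 ± 74.5 CPM in deep-layer ExN-like nuclei (SD, n = 12). Tenm4, which is also needed by oligodendrocyte precursors, was highest in intermediate progenitor-like nuclei, named for the precursors of excitatory neurons, at 2916 ± 345 CPM, and next in D1-like nuclei at 1414 ± 141 CPM. The intermediate progenitor-like class was 1 cluster led by Sema3c, Unc5d and Gm29260 with 4 of 6 markers raised, and upper-layer ExN was its second best match. Dividing nuclei formed the separate cycling-like class, with 365 CPM of Tenm4. The cycling-like cluster had the inhibitory markers Dlx1 and Dlx6os1 among its leading genes and olfactory-type InhN as second best match. The 2 classes thus differed in lineage markers as well as in division. In the oligodendrocyte lineage-like class Tenm4 stood at only 98.2 CPM. Tenm3, which wires matching regions of the hippocampus and the visual system, had no single leading class, with 937 ± 198 CPM in D1-like, 931 ± 68.5 CPM in astroglia/radial glia-like and 911 ± 283 CPM in upper-layer ExN-like nuclei. It was the only teneurin near its own maximum in astroglia/radial glia-like nuclei, where Tenm1 stood at 63.5, Tenm2 at 291 and Tenm4 at 112 CPM.

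Latrophilins differed in how evenly they spread over classes. Adgrl1, the most even of the 10 genes by the ratio of its highest to its lowest class, ranged from 213 ± 30.6 CPM in D2-like to 23.8 CPM in microglia-like nuclei, and between 133 and 183 CPM in 13 of the other classes. Adgrl2 was highest in intermediate progenitor-like (1164 ± 128 CPM) and upper-layer ExN-like nuclei (1125 ± 108 CPM) and lowest in CGE InhN-like nuclei (110 ± 31.1 CPM), and it was also high in endothelial-like nuclei (964 ± 177 CPM). Adgrl3, which human genetics ties to attention deficit, was highest in the oligodendrocyte lineage-like class at 3602 ± 214 CPM, then in MGE InhN-like nuclei at 3058 ± 138 CPM. Within the inhibitory classes Adgrl2 and Adgrl3 went apart, since CGE InhN-like nuclei held the lowest Adgrl2 of any class beside 2428 ± 180 CPM of Adgrl3.

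FLRT genes were led by Flrt2. It was highest in deep-layer ExN-like nuclei at 620 ± 81.5 CPM, followed by mural/fibroblast-like nuclei at 506 ± 149 CPM and MGE InhN-like nuclei at 471 ± 48.9 CPM, and stood at 225 ± 58.6 CPM in upper-layer ExN-like nuclei. Flrt3 was highest in Cajal-Retzius-like (64.0 ± 17.8 CPM), D2-like (63.9 ± 27.4 CPM) and D1-like nuclei (51.9 ± 16.1 CPM) and lowest in L6b/subplate ExN-like nuclei (5.03 CPM). Flrt1 stayed between 2.99 CPM in endothelial-like and 32.8 CPM in CGE InhN-like nuclei. Counting error is large at these levels, since Flrt1 had 3576 and Flrt3 4710 UMIs over all kept nuclei, beside 970510 of Tenm2.

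Neighbours in each order of classes were compared within libraries by an exact paired permutation test (sign flips, two-sided) on log2(CPM + 1), with Benjamini-Hochberg adjustment over the 187120 neighbour pairs of 11695 genes. Of the 160 neighbour pairs of the members, 16 passed at an adjusted p under 0.05, against 3.01% of pairs over all genes. With 12 libraries the smallest p is 0.000488. The order was set by mean CPM over these same libraries, so which class of a pair stood higher was not an independent finding. The leading class stood above the next for Tenm2 (D1-like above D2-like by 0.38 on the log2 scale), Tenm4 (intermediate progenitor-like above D1-like by 1.04), Adgrl1 (D2-like above D1-like by 0.22) and Adgrl3 (oligodendrocyte lineage-like above MGE InhN-like by 0.24), each in 12 of 12 libraries with an adjusted p of 0.0244. Tenm1 also passed between upper-layer and deep-layer ExN-like nuclei (0.62 on the log2 scale, 12 of 12 libraries, exact permutation test, adjusted p = 0.0244). The top neighbours of Tenm1, Tenm3, Adgrl2, Flrt1, Flrt2 and Flrt3 did not pass this adjustment, and no neighbour pair of Tenm3, Flrt1 or Flrt3 passed. Levels of the top pair of Adgrl2, intermediate progenitor-like and upper-layer ExN-like, changed order with the clustering.

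The genes differ in length, so CPM was also divided by gene length. This assumes that counts grow with the length of a gene, which was not tested. Over all kept nuclei the levels were 4.02 CPM per kb for Adgrl2, 3.76 for Tenm2, 3.52 for Flrt2, 3.47 for Adgrl1 and 2.70 for Adgrl3. Flrt1 followed with 1.26 CPM per kb, Tenm3 and Flrt3 with 1.11, Tenm4 with 0.948 and Tenm1 with 0.842. Adgrl1 and Flrt2, which are short beside the teneurins, were thus near the top on this scale although their CPM values were a small share of that of Tenm2.

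Partners were then set side by side over the 17 class means. The points share libraries and depth, and a low class such as microglia-like weighs on every pair, so the values are descriptions. Among pairs of a teneurin with a latrophilin, Tenm2 and Adgrl1 ordered the classes most alike. Their Spearman correlation was 0.72 over 17 classes and 0.75 over the 9 neuronal classes. The latter are the excitatory, Cajal-Retzius-like, inhibitory and striatal classes, without the intermediate progenitor-like class. Tenm4 and Adgrl1 came next over 17 classes (0.66, and 0.63 over neuronal ones), and Tenm2 and Adgrl2 over neuronal ones (0.67, and 0.29 over 17). For Adgrl3 the correlation over 17 classes was 0.47 with Tenm1, 0.43 with Tenm2, 0.28 with Tenm4 and 0.093 with Tenm3, and over the neuronal classes it was -0.13, -0.17, -0.17 and -0.033. Tenm1 and Tenm2 had 0.86 over 17 classes but 0.17 over the neuronal ones, so they did not order the neuronal classes alike.

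Flrt2 was most like Adgrl2 among the latrophilins, with 0.50 over 17 and 0.75 over 9 neuronal classes. Against the repulsive receptor gene Unc5d its correlation was -0.23 and -0.20, and against Unc5a 0.04 and -0.68. It was -0.16 and -0.70 against Unc5b and -0.096 and -0.58 against Unc5c. The neuronal values leave out the intermediate progenitor-like class, where Unc5d was among the leading genes. Flrt3 had -0.26 with Adgrl2 over 17 classes and 0.03 over neuronal ones. Within the cortex, Flrt2 was higher in deep-layer than in upper-layer ExN-like nuclei while Adgrl2, Adgrl3, Tenm1 and Tenm3 had the opposite order of means.

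**Figure D2:**
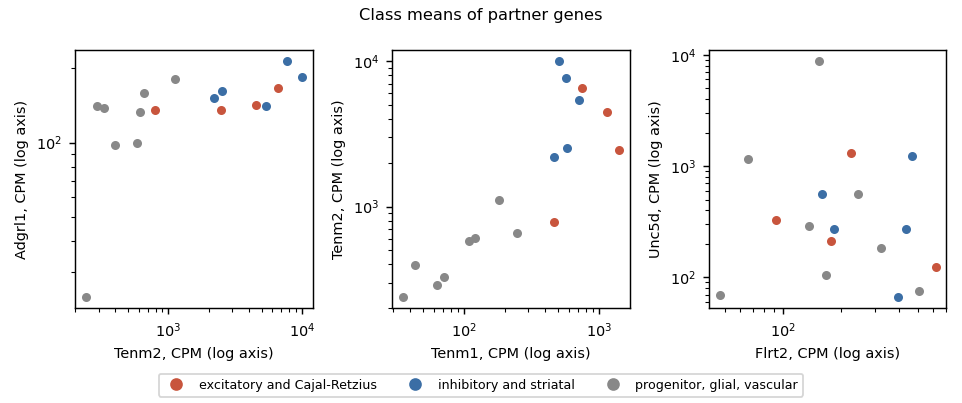
Each point is the mean CPM of 1 of the 17 classes, on log axes, for Tenm2 against Adgrl1 (left), Tenm1 against Tenm2 (middle) and Flrt2 against Unc5d (right), coloured by kind of class. Tenm2 and Adgrl1 run together (Spearman 0.72), Tenm1 and Tenm2 run together over all classes (0.86) but not among the 9 neuronal ones (0.17), and Flrt2 and Unc5d show no common order (-0.23).

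Genes with the most similar pattern were sought among 11694 others by Pearson correlation over the 17 class means. For Tenm1 they were Scn2a and Gabrb2, a sodium channel and a GABA-A receptor subunit gene (both 0.97), for Adgrl1 Kif3c and Mark1, a kinesin and a microtubule kinase gene (both 0.96), and for Tenm3 Gnao1 (0.90) and Ntrk2 (0.88). Tenm4 was nearest to Igsf9 (0.93) and Gm15645 (0.89), Tenm2 to Gm28755 (0.97) and Gm28756 (0.96), Flrt1 to Slc4a3 (0.83) and Gm42974 (0.82), and Flrt3 to Ajap1 (0.86) and Stk26 (0.76). The nearest for Adgrl3 (Gm43594, 0.99, then Sgtb, 0.89), for Flrt2 (Gm48015, 0.96, and Gm48014, 0.90) and for Adgrl2 (Gm43573, 0.92, then Atrnl1, 0.81) began with a gene that overlaps the member itself. For Adgrl3 and Flrt2 the overlap is on the same strand, so their reads are not separate measurements, and for Adgrl2 it is on the opposite strand, where shared reads were not tested.

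Among the 8 clusters of excitatory nuclei the members split further. Tenm1 ranged from 2306 ± 198 CPM (SD, n = 12) in the upper-layer cluster led by Rorb, Gpc5 and Tafa1 to 355 ± 44.2 CPM in the upper-layer cluster led by Adamts2, Hs6st2 and Frem2. Tenm2 went the other way, with its lowest level of 1980 ± 530 CPM in that Rorb cluster and its highest of 8504 ± 2108 CPM in the upper-layer cluster led by Ntf3, Cntnap5c and Mkx. The name of this last cluster rests on 5 of 8 markers, none among its 10 leading genes, and the cluster holding these genes was unnamed at Leiden resolutions 0.8 and 2.5 and with the members used in clustering. Flrt2 ranged from 787 ± 105 CPM in the deep-layer cluster led by Tle4, Etv1 and Tshz2 to 69.9 ± 22.2 CPM in the upper-layer cluster led by Cux2, Tec and Klhl1, which held the highest Tenm3 (1179 ± 253 CPM). Tenm4 and Adgrl2 were highest in the Adamts2 cluster, at 1053 and 1428 CPM, and lowest in the L6b/subplate cluster, at 228 and 344 CPM.

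Het and WT libraries were then compared, which asks how the levels of these partners stood with the frameshift on 1 Myt1l allele. Over the 17 classes, 141 pairs of member and class had enough counts, and 0 passed edgeR's quasi-likelihood test at a Benjamini-Hochberg adjusted p under 0.05 with a log2 difference of at least 0.2, against 0.012% of all 99860 tests (12 calls). At an unadjusted p under 0.05 stood 24 of the 141 pairs, 13 higher and 11 lower in Het, against 6.24% of all tests. DESeq2 called 1 pair, Flrt2 in upper-layer ExN-like nuclei, where it called 0.0576% of genes. Of all pairs, 1 had Het and WT libraries that did not overlap, Tenm3 in CGE InhN-like nuclei, against 0.488% of all tests. All 10 members were tested over all kept nuclei and over the named excitatory classes (upper-layer, deep-layer and L6b/subplate). The latter are called all excitatory nuclei here. Fewer members were tested by class, with 8 classes for Flrt1 and 6 for Flrt3.

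Over all excitatory nuclei 0 of the 10 members passed in edgeR, against 0.00725% of 13797 genes (1 call), and 3 had an unadjusted p under 0.05, against 11.6% of genes. DESeq2 also called 0. The 3 were Tenm3, Flrt2 and Tenm1. These sums hold 17466 upper-layer, 6861 deep-layer and 1233 L6b/subplate ExN-like nuclei and leave out excitatory nuclei of unnamed clusters. Over all 21 clusters in which excitatory markers led (51.7% of kept nuclei, the intermediate progenitor-like cluster and the Cajal-Retzius-like cluster of 80 nuclei led by Ebf2 included, a set chosen after the data were seen), edgeR also called 0 members, against 0.0% of 16490 genes. There 2 members had an unadjusted p under 0.05, Tenm3 (log2 difference 0.72) and Flrt2 (-0.49), both with an adjusted p of 0.188, against 12.2% of genes.

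**Figure D3:**
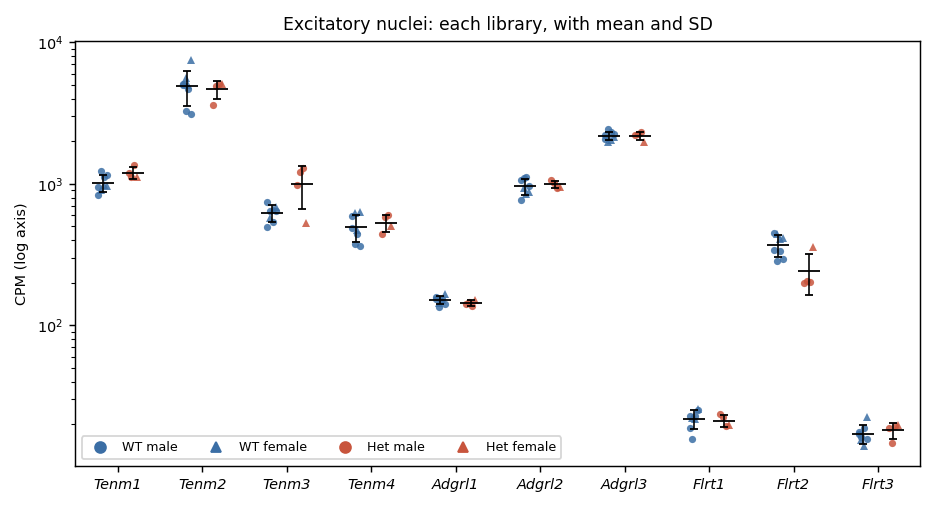
CPM of each member over all nuclei of the named excitatory classes, on a log axis. Points are libraries (circles male, triangles female, blue WT, red Het) and bars are mean and SD. For Tenm3 the 3 Het males lie above all WT libraries and the Het female among them, and for Flrt2 the 3 Het males lie below all WT libraries and the Het female among them.

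Tenm3 in excitatory nuclei lay between 492 and 747 CPM over the WT libraries, with a median of 640. It was 982, 1217 and 1290 CPM in Het males 1, 2 and 3 and 532 CPM in the Het female. The 3 Het males were thus above every WT library, and the Het female was below the WT median and inside the WT range. The log2 difference was 0.68 ± 0.17 (SE; edgeR, adjusted p = 0.259). Without the Het female it was 0.89, with an adjusted p of 0.00239 in edgeR, and 1.5% of all genes were then called. Among males alone it was 0.92 (edgeR, adjusted p = 0.0243). Leaving out 1 library in turn gave 0.54 to 0.89. The Het female was the 1 Het library inside the WT range, so leaving it out widens the difference and is no separate support.

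Flrt2 in excitatory nuclei lay between 283 and 451 CPM over the WT libraries, with a median of 374. It was 201, 206 and 202 CPM in Het males 1, 2 and 3 and 358 CPM in the Het female, so again the Het males stood outside the WT range and the Het female inside it. The log2 difference was -0.63 ± 0.17 (SE, edgeR, adjusted p = 0.273), and -0.89 without the Het female (edgeR, adjusted p = 0.0101). Leaving out 1 library in turn gave -0.89 to -0.55, and the run without the Het female is again no separate support. With sex and replicate number as a block the adjusted p of Flrt2 was 0.0476 in edgeR, although no label says that same-numbered libraries are pairs. Gm48015, inside Flrt2, was 16.3 ± 2.95 CPM in WT and 9.38 ± 3.93 CPM in Het libraries, and Gm19744, which overlaps Tenm3 on the opposite strand, was 2.90 ± 1.08 and 5.56 ± 3.23 CPM (SD). Neither passed.

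Tenm1 in excitatory nuclei was 1016 ± 140 CPM over the 8 WT and 1195 ± 112 CPM over the 4 Het libraries (SD), with all 4 Het libraries above the WT mean and overlapping ranges. Its log2 difference was 0.22 ± 0.10 (SE; edgeR, adjusted p = 0.432). The other 7 members had log2 differences between -0.08 and 0.10. Tenm2 had the widest WT range, from 3097 to 7506 CPM, and stood at 3608, 4899, 5051 and 5067 CPM in the Het libraries.

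Both Tenm3 and Flrt2 differ widely between excitatory clusters. Mean shares of these clusters differed between Het and WT libraries, with overlapping ranges. The Ntf3 cluster made up 5.70% ± 1.16 of kept nuclei over the 8 WT and 3.38% ± 1.51 over the 4 Het libraries (SD), and the Adamts2 cluster 3.35% ± 1.06 and 5.93% ± 2.56. Deep-layer ExN-like nuclei made up between 3.06% and 4.69% of the Het male libraries and 8.22% of the Het female library. In WT libraries they made up between 3.44% and 14.5%, with a median of 7.85% (Het against WT, exact permutation p = 0.0646). In a sum over nuclei, other shares of clusters and other levels per nucleus cannot be told apart.

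Shares, taken in UMIs, and levels were therefore each varied with the other held at its WT value. The 2 resulting values need not add up to the observed difference. With the mean WT level in each cluster and each library's own shares, the log2 difference of Flrt2 over excitatory nuclei was -0.49 (exact permutation test, two-sided p = 0.0323), beside -0.64 observed (p = 0.0202). With each library's own levels and the shares of the pooled WT libraries it was -0.21 (exact permutation p = 0.0121). For Tenm3 the observed difference was 0.62 (exact permutation p = 0.0323), beside 0.22 from shares alone (p = 0.0808) and 0.29 from levels alone (p = 0.0768). In upper-layer ExN-like nuclei shares alone gave -0.43 for Flrt2 (exact permutation p = 0.0283) and 0.09 for Tenm3 (p = 0.0404). Levels alone gave -0.17 for Flrt2 (exact permutation p = 0.275) and 0.34 for Tenm3 (p = 0.0889) there. For Tenm2 the shares alone gave -0.36 (exact permutation p = 0.0242) and the levels 0.23 (p = 0.283), where the observed difference was -0.04. These sums hold the 8 named excitatory clusters. They leave out the unnamed cluster led by Tshz2, Ntf3 and Msra, which held 13013 CPM of Tenm2. Its mean share was 0.682% in WT and 4.35% in Het libraries, and the parts with it included were not computed.

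**Figure D4:**
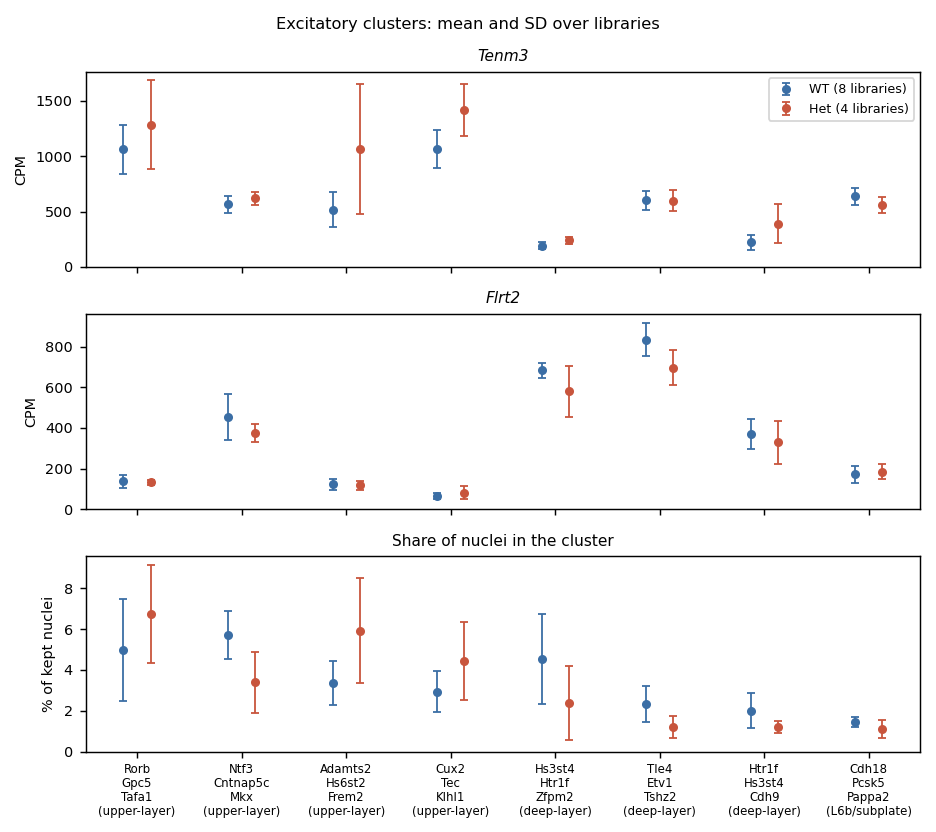
Mean and SD over libraries of Tenm3 CPM (top), Flrt2 CPM (middle) and the percent of kept nuclei (bottom) in the 8 excitatory clusters, named by their leading genes, for WT (blue, 8 libraries) and Het (red, 4 libraries). Flrt2 is highest in the Tle4 cluster (787 CPM over all libraries) and lowest in the Cux2 cluster (69.9 CPM), the 3 deep-layer clusters have lower mean shares in Het, and the Het error bar of Tenm3 is widest in the Adamts2 cluster.

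Het and WT were also set side by side within the 8 named excitatory clusters, where 7 of the 80 pairs of member and cluster had an unadjusted exact permutation p under 0.05, against 5.25% over the 11695 genes with at least 1000 UMIs. Tenm3 was higher in Het in 6 of the 8 clusters, as 24.5% of genes were in 6 or more, and 2 of these had an unadjusted exact permutation p under 0.05, the Cux2 cluster (1061 ± 171 CPM in WT, 1415 ± 236 in Het) and the deep-layer cluster led by Hs3st4 (192 ± 32.5 and 241 ± 32.7 CPM). Flrt2 was lower in 6 of 8, as 15.9% of genes were in 6 or more, with 1 under 0.05, the Tle4 cluster (834 ± 81.8 and 695 ± 86.0 CPM). Tenm2 was higher in 8 of 8 clusters, as 2.43% of genes were, with 0 of these under 0.05 by the exact permutation test. With equal weight for each cluster, the log2 difference over excitatory nuclei was 0.32 for Tenm3 (exact permutation p = 0.0646) and -0.19 for Flrt2 (p = 0.0202).

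Among the excitatory classes, Flrt2 and Tenm3 had their smallest p-values in upper-layer ExN-like nuclei. There Flrt2 was between 195 and 329 CPM in WT, with a median of 229, and 154, 153, 155 and 232 CPM in Het males 1, 2 and 3 and the Het female (log2 difference -0.53 ± 0.14 SE, edgeR, adjusted p = 0.298, DESeq2 adjusted p = 0.0447). Tenm3 was between 653 and 961 CPM in WT, with a median of 734, and 1063, 1391, 1509 and 681 CPM in the Het libraries in the same order (0.56 ± 0.15 SE, edgeR, adjusted p = 0.302). In deep-layer ExN-like nuclei Flrt2 was 656 ± 48.2 CPM in WT (SD, n = 8) and 653, 511, 440 and 592 CPM in Het (-0.26 ± 0.089 SE, edgeR, adjusted p = 0.577). The deep-layer value was -0.17 without Het male 3. The 3 Het males lay below all WT values in upper-layer nuclei, where the Het female was above the WT median, and Het males 2 and 3 did so in deep-layer nuclei.

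**Figure D5:**
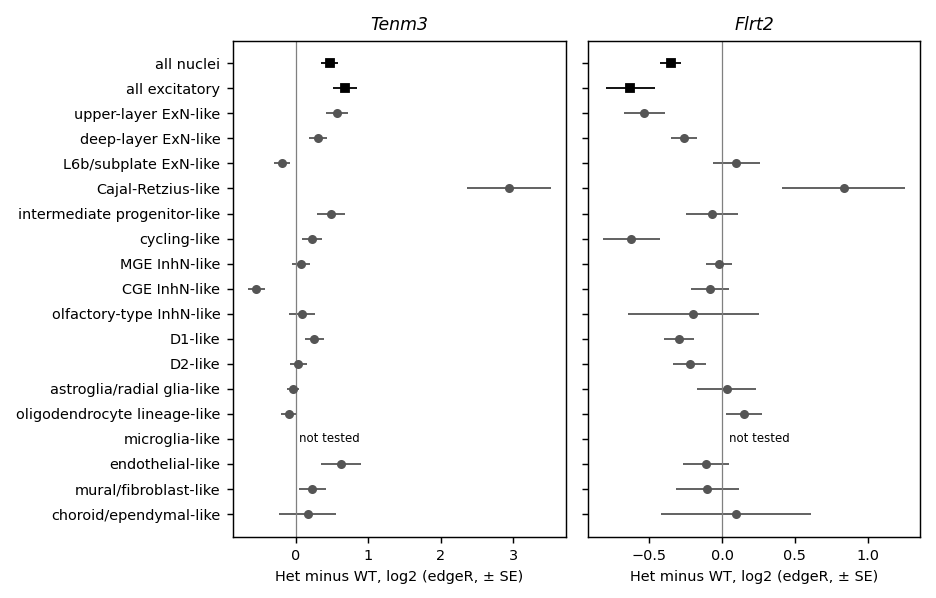
Het minus WT log2 difference (edgeR, bars are SE) of Tenm3 (left) and Flrt2 (right). Squares are all nuclei and all nuclei of the named excitatory classes, and circles are each class. The value of Tenm3 runs from -0.54 in CGE InhN-like to 2.94 in Cajal-Retzius-like nuclei, and 0 of the class values passed adjustment over all genes.

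Tenm3 in CGE InhN-like nuclei, the inhibitory neurons of the caudal eminence, was between 700 and 972 CPM in WT with a median of 842, and 685, 522, 587 and 467 CPM in the Het libraries. The ranges did not overlap, as in 0.548% of genes tested in that class, and here the Het female was the lowest. The log2 difference was -0.54 ± 0.12 (SE; edgeR, adjusted p = 0.264). In the 3 Het males, though not in the Het female, the direction was opposite to that in upper-layer ExN-like nuclei, and the difference between these classes was 1.07 higher in Het on the log2 scale (exact permutation p = 0.00404, the smallest that 12 libraries can give). That pair of classes was chosen after the values were seen.

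Tenm3 in Cajal-Retzius-like nuclei had the largest log2 difference of any pair, 2.94 ± 0.58 (SE; edgeR, adjusted p = 0.141). It was between 77.6 and 432 CPM in WT, with a median of 110.5, and 525, 1259, 2801 and 69.7 CPM in the Het libraries. Most of it lay in a cluster of 80 nuclei led by Ebf2, Ebf3 and Ntng1, with 8663 CPM of Tenm3 and 5843 CPM of Tenm2, and 58 of these nuclei came from Het males 2 and 3. In the other 790 Cajal-Retzius-like nuclei, Tenm3 was 91.8 ± 23.3 CPM over the 8 WT and 77.4 ± 40.4 CPM over the 4 Het libraries (SD), which gave a log2 difference of -0.32 (exact permutation p = 0.295). Tenm2 in the whole class was between 247 and 682 CPM in WT and 572, 1183, 2969 and 597 CPM in Het (edgeR, adjusted p = 0.451), and without that cluster its log2 difference was 0.35 (exact permutation p = 0.364).

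In intermediate progenitor-like nuclei, 5 of the 8 members tested had an unadjusted p under 0.05, against 6.1% of 3574 genes. Adgrl3 was between 1834 and 3098 CPM in WT, with a median of 2420, and 2035, 1840, 2030 and 1865 CPM in Het (log2 difference -0.37 ± 0.11 SE, edgeR, adjusted p = 0.395). Tenm2 there was between 829 and 1169 CPM in WT and 975, 1416, 1859 and 988 CPM in Het (0.37 ± 0.13 SE, edgeR, adjusted p = 0.537), so Het males 2 and 3 alone lay above the WT range, and without Het male 3 the difference was 0.14. Those libraries also led in L6b/subplate ExN-like nuclei, where Tenm2 was 1971, 3628, 3865 and 2117 CPM in Het and between 1915 and 2835 CPM in WT (0.37 ± 0.14 SE, edgeR, adjusted p = 0.461, and 0.20 without Het male 3). Adgrl3 had 0 Het libraries above the WT mean, and Tenm4 and Tenm1 in that progenitor class also had all 4 Het values below it.

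The remaining pairs among the 12 with the smallest p concerned FLRT genes. Flrt2 in cycling-like nuclei was between 147 and 393 CPM in WT, with a median of 279.5, and 202, 186, 168 and 209 CPM in Het (log2 difference -0.62 ± 0.20 SE, edgeR, adjusted p = 0.310). In D1-like nuclei Flrt2 was between 318 and 692 CPM in WT and 376, 308, 331 and 290 CPM in Het (-0.30 ± 0.10 SE, edgeR, adjusted p = 0.647). Flrt3 in D1-like nuclei was between 43.3 and 95.4 CPM in WT and 32.6, 40.2, 43.6 and 43.0 CPM in Het (-0.38 ± 0.13 SE, edgeR, adjusted p = 0.623). For both D1-like values the highest WT library was WT male 4, with 17 nuclei, and all 4 Het values lay below the WT mean. The other 12 of the 24 pairs had log2 differences between -0.34 (Tenm1 in intermediate progenitor-like nuclei) and 0.66 (Tenm2 in endothelial-like nuclei).

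A sum over all kept nuclei uses no class names but still depends on the mix of cells. In it 0 members passed in edgeR, where 0.0% of 20106 genes were called. DESeq2 called 2 members and 0.12% of 42364 genes. The same pair came first, Flrt2 with 350.5 ± 24.0 CPM over the 8 WT and 280.2 ± 33.4 CPM over the 4 Het libraries (SD; log2 difference -0.35 ± 0.071 SE, edgeR, adjusted p = 0.365, DESeq2 adjusted p = 0.00335) and Tenm3 with 602 ± 42.1 and 848 ± 230 CPM (0.47 ± 0.12 SE, edgeR, adjusted p = 0.365, DESeq2 adjusted p = 0.0383). At an unadjusted p under 0.05 stood 2 members in edgeR, against 10.0% of genes. Mean class shares differed too, given here as Het minus WT percentage points. In the classes highest in Flrt2 they were -4.11 (deep-layer ExN-like), -0.0915 (mural/fibroblast-like) and -1.57 (MGE InhN-like). In those highest in Tenm3 they were 2.86 (D1-like), 0.0809 (astroglia/radial glia-like) and 3.52 (upper-layer ExN-like). Parts from shares and from levels were not computed over all nuclei.

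The difference between upper-layer and deep-layer ExN-like nuclei was compared between genotypes within libraries. In edgeR 0 of the 10 members passed for this interaction, against 0.0169% of 11835 genes. At an unadjusted p under 0.05 stood 3, Tenm2 (-0.44 on the log2 scale, adjusted p = 0.292), Tenm1 (0.29, adjusted p = 0.651) and Tenm4 (-0.30, adjusted p = 0.814), against 6.08% of genes. By the exact permutation test, whose smallest p is 0.00404, Tenm2 upper-layer minus deep-layer was -0.39 ± 0.14 in WT and -0.84 ± 0.38 in Het on the log2 scale (two-sided p = 0.0283), and Tenm1 was 0.52 ± 0.16 and 0.81 ± 0.27 (p = 0.0485), both unadjusted. Without Het male 3 the Tenm1 difference between genotypes was 0.15 (exact permutation p = 0.145) and that of Tenm2 -0.35 (p = 0.0848), and without Het male 1 or 2 both also had a p over 0.05. For Tenm1 the exact permutation p also lay between 0.0545 and 0.0727 without any single WT library other than WT female 2. With WT levels and each library's own cluster shares, Tenm2 in upper-layer ExN-like nuclei differed by -0.41 (exact permutation p = 0.0242), and with own levels at WT shares by 0.14 (p = 0.521). Both values leave out the unnamed cluster led by Tshz2, Ntf3 and Msra. Tenm3 had 1.35 ± 0.30 in WT and 1.54 ± 0.23 in Het, so its mean was higher in upper-layer nuclei in both genotypes.

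Binding partners and downstream genes (21 listed, among them the Unc5 receptors, neurexins, Shank scaffolds and G alpha subunits) were read in the same fits. In the 17 classes 0 of their 245 tests passed in edgeR and 23 (9.39%) had an unadjusted p under 0.05, against 6.24% of all tests. Over excitatory nuclei 20 were tested, and 5 had an unadjusted p under 0.05, against 11.6% of genes. Of these, 4 had a negative log2 difference, Gna12 (-0.22), Unc5a (-0.30), Shank1 (-0.15) and Nrxn2 (-0.14), and 1 a positive one, Gpc3 (0.42), a glypican bound by Unc5 proteins. Unc5d, the partner of Flrt2, was 862 ± 178 CPM over the 8 WT and 1030 ± 230 CPM over the 4 Het libraries (SD; edgeR, adjusted p = 0.569).

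Sex was compared in the WT libraries because Tenm1 lies on chromosome X. Tenm1 over all kept nuclei was 783 ± 79.5 CPM in 5 males and 703 ± 19.6 CPM in 3 females, a female minus male log2 difference of -0.18 ± 0.087 (SE; edgeR, adjusted p = 1.00). In edgeR 0 of 10 members passed, against 0.0371% of 18873 genes, and 1 had an unadjusted p under 0.05, against 2.49% of genes. That was Adgrl3, with 2261 ± 88.9 CPM in males and 2062 ± 146 CPM in females. DESeq2 called 0 as well.

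Other processing called some members, and the share of all genes called is given beside each. Without the Het female, edgeR called Tenm3 and Flrt2 in upper-layer ExN-like nuclei (0.591% of genes) and over all nuclei (0.221%), and Tenm3 in Cajal-Retzius-like nuclei (0.165%). Without WT male 1 it called Tenm3 in Cajal-Retzius-like nuclei (0.0598%). Among males it called Tenm3 over excitatory nuclei (0.0213%), Tenm3 and Flrt2 in upper-layer ExN-like (0.286%) and Tenm2, Tenm3 and Flrt2 in Cajal-Retzius-like nuclei (0.594%). With replicate numbers as a block it called Flrt2 over excitatory (0.105%) and in upper-layer ExN-like nuclei (0.0644%). With no filter on low counts it called Tenm3 and Flrt2 over excitatory (0.166%) and upper-layer ExN-like nuclei (0.711%), Tenm2, Tenm3 and Flrt2 in Cajal-Retzius-like (0.379%), Tenm2 and Tenm4 in astroglia/radial glia-like (0.444%) and Tenm2 in endothelial-like nuclei (0.0978%).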

How the data were processed

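Nuclei of 12 P1 forebrains were fixed, barcoded with the ScaleBio split-pool kit and sequenced. The authors aligned reads to mm10 and deposited gene by barcode tables of expected counts, in which UMIs that fitted several genes were divided among them, and the submitters' processing notes also name Seurat 4.3.0. A test for counts had been planned, so the deposited expected counts were rounded to whole numbers after summing. Nuclei with 800 to 6000 UMIs, 300 to 3000 genes and at most 1% mitochondrial UMIs, after the study's filters, were kept (98111 of 126684 barcodes), and of the 6333 barcodes marked as doublets, the top 5% of a simulated-doublet score in each library, the 3806 that had passed these filters were removed. Free RNA was not subtracted. Nuclei were clustered (leidenalg 0.10.2, 3000 variable genes, 50 components, Leiden resolution 1.5) without the 10 members and the 21 pathway genes. Classes were named from fixed markers, with naming thresholds set after the clusters were seen. Counts were summed per library and class, Het and WT were compared with edgeR 4.0.16 (quasi-likelihood, TMM, filterByExpr) over all genes, and DESeq2 1.42.0 was the alternative. In these fits libraries with under 10 nuclei of a class still entered, whereas the levels left them out.

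Levels were compared on log2(CPM + 1). Their p-values were adjusted over all genes with at least 1000 UMIs, where the plan named the members alone. Pairs of member and class are named where 1 of the 12 smallest p-values among the 141 pairs fell on them, or where all excitatory nuclei gave an unadjusted p under 0.05. Pathway genes are named where all excitatory nuclei gave an unadjusted p under 0.05, Unc5d as the partner of Flrt2, and of genes like a member in pattern the 2 with the highest Pearson correlation. The exact permutation test over libraries had 495 splits and cannot go below p = 0.00404. Replicate numbers were not taken as pairs. Deviations of same-numbered Het and WT libraries correlated at -0.19, 0.13, 0.15 and 0.43, and those of differently numbered ones between -0.39 and 0.38. The lowest chi-square per gene between libraries of the same genotype was 6.72, so no library was counted as a copy. The members, lists and marker genes were chosen with earlier results of these data known. Scripts were tested on simulated data. Sequences and positions came from RefSeq and GENCODE M21 tables.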

Additional observations from a re-analysis of the deposited data

Results flagged for a closer look

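Of 64 groups of libraries examined, 5 held a library that stood apart from the rest of its group by Dixon's criterion, where chance gives about 5%. Flrt2 in the Het female was 358 CPM over excitatory nuclei, where the other Het libraries lay between 201 and 206, and 232 CPM in upper-layer ExN-like nuclei, where they lay between 153 and 155. Tenm2 over excitatory nuclei was 3608 CPM in Het male 1, where the other Het libraries lay between 4899 and 5067. Tenm3 in Cajal-Retzius-like nuclei was 432 CPM in WT male 1, where the other WT libraries lay between 77.6 and 172. Flrt3 in D1-like nuclei was 95.4 CPM in WT male 4, from 17 nuclei, where the other WT libraries lay between 43.3 and 62.7.

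Genotype effects were compared between classes. The upper-layer minus deep-layer difference was 0.28 higher in Het for Tenm1 and -0.45 for Tenm2 on the log2 scale, by the exact permutation test with unadjusted p of 0.0485 and 0.0283. No member passed for this interaction in edgeR over all genes, and without Het male 3 the values were 0.15 (exact permutation p = 0.145) and -0.35 (p = 0.0848). The Tenm3 difference between upper-layer ExN-like and CGE InhN-like nuclei was 1.07 higher in Het (exact permutation p = 0.00404), but these classes were chosen after their values were seen with opposite signs, so this p restates that observation.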

How the results depend on the processing

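Several calls turned on single libraries and on how low counts were filtered. Without Het female 1, edgeR called 3 pairs by class, Tenm3 (log2 difference 0.74) and Flrt2 (-0.69) in upper-layer ExN-like and Tenm3 in Cajal-Retzius-like nuclei (3.33), 2 members over excitatory nuclei and 2 over all nuclei, Tenm3 (0.62) and Flrt2 (-0.44). Without WT male 1, Tenm3 in Cajal-Retzius-like nuclei was called (3.47). Leaving out each library in turn gave 0 to 3 calls by class, 0 to 2 over excitatory nuclei, 0 to 2 over all nuclei, 0 to 2 for the pathway list (main value 0 in each) and 11 to 16 for the neighbour pairs of levels. DESeq2 gave 1 call by class and 2 over all nuclei, no filter on low counts 8 by class, 2 over excitatory nuclei and 3 in the pathway list, and males alone 5 by class and 1 over excitatory nuclei. With the replicate block there was 1 call by class, Flrt2 in upper-layer ExN-like nuclei. Over excitatory nuclei it gave 1 call, Flrt2 (-0.58, edgeR, adjusted p = 0.0476), although no label says that same-numbered libraries are pairs. For levels, 10 neighbour pairs passed with the members used in clustering, 0 with WT libraries alone, where 8 libraries cannot reach a small enough p, and 25 with adjustment over the members only, an alternative chosen after seeing the data.

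Some directions reversed. Tenm3 in Cajal-Retzius-like nuclei was -0.14 at Leiden resolution 0.8 and -0.32 both with equal weight for each cluster and without the Ebf2 cluster, the last chosen after seeing the data, as were the sums by cluster shares. Tenm1 in L6b/subplate minus upper-layer ExN-like nuclei was -0.057 at resolution 0.8. Adgrl2 in intermediate progenitor-like minus upper-layer ExN-like nuclei was -0.020 at resolution 0.8, -0.22 with the members used in clustering and -0.085 with doublets kept. Leaving out libraries in turn, Tenm3 in D1-like minus astroglia/radial glia-like nuclei ran from -0.071 to 0.028 and Flrt3 in Cajal-Retzius-like minus D2-like nuclei from -0.11 to 0.53, and WT male 4 gave both turns. The cause was not tested. Tenm3 and Flrt2 over excitatory nuclei kept their direction under all alternatives, from 0.22 to 0.92 and from -0.89 to -0.19. Equal weight for each cluster gives no count of calls.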

Other observations

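The highest teneurin level of any cluster lay outside the named classes. A cluster of 2235 nuclei led by Tshz2, Ntf3 and Msra, with pan-excitatory markers but no class name, held 13013 ± 2305 CPM of Tenm2 (SD, over the 11 libraries with at least 10 nuclei of it), beside 8504 CPM in the highest named excitatory cluster. The cluster missed the name upper-layer ExN-like by a score of 0.399 where 0.4 was asked, a threshold set after the clusters were seen, and received it at Leiden resolution 2.5 and with doublets kept, so the upper-layer and excitatory sums leave its nuclei out. It also held 1176 ± 686 CPM of Tenm3 and 1288 ± 134 CPM of Tenm4. Its nuclei made up 7.79% of Het male 2 and 7.59% of Het male 3, but 1.64% of Het male 1, 0.362% of the Het female and 0.682% ± 0.522 of the WT libraries (SD, n = 8). Within it Flrt2 was 296 ± 104 CPM over 7 WT and 198 ± 11.5 CPM over 4 Het libraries (exact permutation p = 0.0303, unadjusted), and Tenm3 was 831 ± 312 and 1779 ± 781 CPM (exact permutation p = 0.0606). The cluster was singled out after its levels were seen, and the share of all genes with such a p was not computed in it. Het males 2 and 3 are also the libraries with the highest Tenm2 in L6b/subplate ExN-like, intermediate progenitor-like and Cajal-Retzius-like nuclei, and whether RNA of this cluster was part of those values was not tested.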
